A study of Saccharomyces cerevisiae with 6 samples.

Results

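The 41 genes described here encode proteins of the spliceosome of Saccharomyces cerevisiae, chosen by gene identifier from the 6603 open reading frames of the table. They are the 23 PRP genes from PRP2 to PRP46, the U5 helicase gene BRR2, SNU13, SNU66 and SNU114, the 7 genes LSM2 to LSM8, and the 7 Sm genes SMB1, SMD1, SMD2, SMD3, SME1, SMX2 and SMX3. All 41 were in the table and had a mean of at least 10 normalised reads over the 6 libraries, so all were tested. RNA had been purified with phenol and chloroform from untreated log-phase BY4741, a laboratory strain, and 3 libraries of RNA that self-assembled and was pelleted were set against 3 libraries of total RNA. Assembly took place in 150 mM NaCl, 10% polyethylene glycol and 1 mM MgCl2 with 150 µg/mL of total yeast RNA. The labels place RNA of both groups in the salt and polyethylene glycol buffer, and they leave unclear what was done to total RNA. Both groups were depleted of ribosomal RNA with Ribozero and made into paired-end Nextera libraries. Assembly used extracted RNA and no cells, so the values describe how mRNAs were represented in pelleted RNA relative to total RNA. The total RNA values cannot tell fewer cells from less RNA per cell.

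The spliceosome removes introns from pre-mRNA in a cycle of assembly, catalysis and disassembly. The U1, U2, U4, U5 and U6 small nuclear ribonucleoproteins each consist of a small RNA with proteins. A ring of 7 Sm proteins encircles the U1, U2, U4 and U5 RNAs, while the related LSM2 to LSM8 ring holds the 3′ end of U6. Many of the PRP genes were found through mutants defective in RNA processing. The products of the PRP genes include RNA-dependent ATPases, scaffolds, factors of single snRNPs and proteins of the Prp19 complex. In budding yeast few genes have introns, but many of those are highly expressed ribosomal protein genes. The members here were compared as mRNAs and not as proteins.

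Recovered read totals ran from 8749240 to 10531980 per library. URA3 reached at most 0.862 normalised reads and LEU2 and MET17 were listed at 0 in every library, and the a-cell gene STE2 (3381 to 4986 normalised reads) stood far above the alpha-cell gene MF(ALPHA)1 (2.56 to 7.26). BY4741 is known as a MATa strain with deletions of LEU2, MET17 and URA3 and a partial deletion of HIS3, and HIS3 had 159 to 293 normalised reads. Total RNA libraries 1 and 2 were the most alike of the pairs within a group, with a chi-square of 1.57 per degree of freedom where the others had 12.1 to 59.8. Calls that end without either are given below beside the gene. The labels do not say that libraries came from separate cultures or reactions. The p-values then measure no more than the spread between these libraries, which may be technical.

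The 41 mRNAs parted in both directions. In limma on log2(value + 1), with adjustment over all 5670 genes tested, 17 members were higher in assemblies and 18 were lower, while 6 missed the threshold, an adjusted p of 0.05. Over all genes tested, 41.3% were called higher and 40.8% lower, 82.2% in all, so neither share of the members stands apart from the background. The median log2 fold change of the members was -0.06, beside 0.02 for all genes. The members ranged from -2.79 (SE 0.20) for LSM6 to 2.18 (SE 0.16) for PRP8. The 3 assembly values lay entirely above the 3 total RNA values in 19 members and entirely below in 20, and the groups overlapped in 2, PRP3 and PRP39. Of all genes tested, 85.3% showed no overlap, 42.7% with assemblies entirely above and 42.6% entirely below. Changes are relative to the median gene: once library totals were made equal, the median over all genes was -0.55, and 10 members were higher and 24 lower. With that scaling 1582 of all 5685 genes tested were called higher and 3061 lower.

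**Figure D1:**
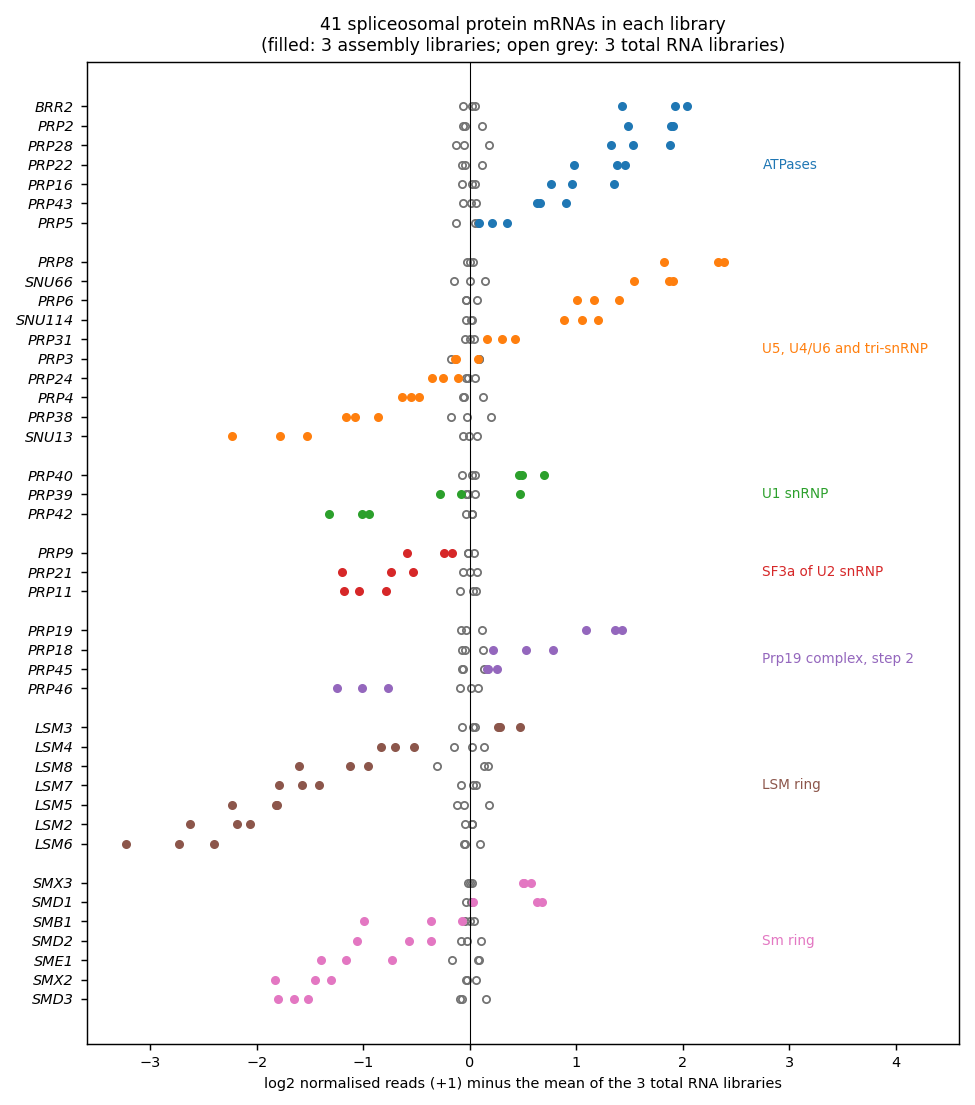
Each row is 1 gene and the x axis is log2 normalised reads (plus 1) minus the mean of the 3 total RNA libraries on that scale, so filled points are the 3 assembly libraries and open grey points the 3 total RNA libraries. All assembly points of the ATPase genes lie to the right of 0, most points of the LSM and Sm genes lie to the left, and LSM3, SMX3 and SMD1 stand on the right within those rings (with equal library totals they were at -0.22, -0.04 and -0.12).

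Among the large proteins of the U5 snRNP and the tri-snRNP, the U4/U6.U5 particle that joins the spliceosome as a unit, PRP8 rose most. PRP8 (YHR165C, minus strand of chromosome VIII, 429707 to 436948 in build R64), the scaffold of the catalytic core and the largest member with 7242 nt of coding sequence, had 13009, 18484 and 19238 normalised reads in assembly libraries 1, 2 and 3. It had 3752, 3688 and 3603 in total RNA libraries 1, 2 and 3. The groups were far apart, with assembly library 1 the lowest of its group, and the log2 fold change was 2.18 (limma, adjusted p = 3.27e-07). SNU66, a tri-snRNP protein, rose by 1.77 (SE 0.14), PRP6, which links U5 to U4/U6, by 1.19 (SE 0.13), and the GTPase SNU114 by 1.05 (SE 0.12) on the log2 scale. PRP31, a U4 protein, was called higher with 0.30 (SE 0.13; limma, adjusted p = 0.0498). That call was lost on leaving out assembly library 1 (adjusted p = 0.0578) or 3 (0.0898), and without any single total RNA library (0.108 to 0.139), and the value was -0.27 with equal library totals.

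Other genes of the U5, U4/U6 and tri-snRNP group were lower or were not called. SNU13 (YEL026W), a small RNA-binding protein shared between U4 and the box C/D small nucleolar RNPs, had 783, 657 and 479 normalised reads in assemblies and 2164, 2252 and 2364 in total RNA. All assembly values were below all total RNA values, and the log2 fold change was -1.85 (SE 0.17; limma, adjusted p = 8.76e-07). PRP4, a U4/U6 protein, had 135, 128 and 121 normalised reads in assemblies against 205, 181 and 182 in total RNA, a log2 fold change of -0.56 (SE 0.14) without overlap of the groups; quantile normalisation ended the call (-0.025; limma, adjusted p = 0.856). PRP38, which is needed to activate the assembled spliceosome, had 32.9, 26.6 and 28.3 against 59.7, 69.8 and 53.7, with -1.03 (SE 0.20) and again no overlap, and it too lost its call after quantile normalisation (-0.34; limma, adjusted p = 0.133). PRP3, another U4/U6 protein, and PRP24, which anneals U4 to U6, were not called, with -0.06 (95% interval -0.39 to 0.26) and -0.24 (95% interval -0.53 to 0.06). PRP24 was called lower without assembly library 1 (limma, adjusted p = 0.0476). For both genes the call turned on the scaling: with equal library totals they were called lower (-0.63 and -0.80) and after quantile normalisation higher (0.55 and 0.30).

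Of the 7 members that encode spliceosomal ATPases, 6 were higher and none was lower. All but PRP28 have coding sequences of at least 2304 nt, and 88.8% of nuclear genes of 2000 nt and over were called higher, so the count is near the background for that length. BRR2 (YER172C, minus strand of chromosome V, 529530 to 536021), the helicase that unwinds U4 from U6, had 4965, 7013 and 7576 normalised reads in assemblies and 1870.2, 1900.1 and 1759 in total RNA. Every assembly library stood far above every total RNA library, and the log2 fold change was 1.80 (SE 0.16; limma, adjusted p = 7.82e-07). PRP2, the ATPase that acts before the first catalytic step, rose by 1.76 (SE 0.14), and PRP28, which exchanges U1 for U6 at the 5′ splice site, by 1.58 (SE 0.16). PRP22, which releases the spliced mRNA, rose by 1.27 (SE 0.15), PRP16, which acts between the catalytic steps, by 1.03 (SE 0.15), and PRP43, which dismantles the lariat spliceosome and also serves in ribosome synthesis, by 0.73 (SE 0.13). PRP5, which acts when U2 joins the branch point, was the exception: it had 389, 358 and 429 normalised reads in assemblies and 356, 349.9 and 308 in total RNA. Its groups did not overlap but almost touched, and it was not called, with a log2 fold change of 0.21 (95% interval -0.07 to 0.50), while it was called lower with equal library totals (-0.35; limma, adjusted p = 0.0425) and higher after quantile normalisation (0.33; adjusted p = 0.0255). PRP5 is longer than PRP28, with 2550 against 1767 nt of coding sequence, and its change was the smaller of the 2. The call of PRP43 rests on the scaling: it had 0.16 with equal library totals (limma, adjusted p = 0.182) and 0.07 after quantile normalisation (adjusted p = 0.608).

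The factors of the early complexes were less uniform. Of the 3 U1 snRNP genes, PRP40, a protein that bridges U1 to the branch point, had 526, 606 and 517 normalised reads in assemblies against 388, 379 and 356 in total RNA, a log2 fold change of 0.55 (SE 0.12; limma, adjusted p = 0.00132; -0.02 with equal library totals). PRP42 had 157, 127 and 165 against 323, 323 and 310.3, a log2 fold change of -1.09 (SE 0.14; limma, adjusted p = 1.44e-05). As scaled by the authors, PRP40 was thus higher and PRP42 lower in every assembly library, although their coding sequences, of 1752 and 1635 nt, are of similar length. Their GC content differed, with 38.5% in PRP40 and 33.3% in PRP42. The curve of length and GC content described below stood at 0.29 for PRP40 and -0.37 for PRP42. PRP39 was not called at 0.03 (95% interval -0.35 to 0.42), with 652 normalised reads in assembly library 3 above all total RNA values and 389 and 444 in assembly libraries 1 and 2 below them. Without assembly library 3 its log2 fold change turned to -0.18, and with equal library totals it was called lower (-0.53; limma, adjusted p = 0.0103).

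PRP9, PRP11 and PRP21 encode the subunits of SF3a, which joins the U2 snRNP at the branch point, and none was called higher. PRP11 and PRP21 have 801 and 843 nt of coding sequence. Of the 1701 nuclear genes from 600 to below 1200 nt, 1057 were lower and 314 higher. The direction of PRP11 and PRP21 thus does not set them apart. PRP9 has 1593 nt, and of the 1595 nuclear genes from 1200 to below 2000 nt, 722 were higher and 462 lower. PRP11 had 99.9, 83.5 and 75.4 normalised reads in assemblies against 162, 180.1 and 176 in total RNA, a ratio of means of 0.499 without overlap (limma, adjusted p = 7.06e-05). PRP21 fell by 0.82 (SE 0.19), but had -0.064 after quantile normalisation (limma, adjusted p = 0.709). PRP9 had 162, 127 and 171 against 189.6, 189.6 and 197, without overlap, but was not called (-0.33, 95% interval -0.66 to -0.01; limma, adjusted p = 0.0542). The adjusted p for PRP9 was 0.0153 without assembly library 3. PRP9 was called lower with equal library totals (-0.90, limma, adjusted p = 0.000626) and with TMM factors (-0.45, limma, adjusted p = 0.0149). It was also called lower by edgeR (-0.42, quasi-likelihood test, adjusted p = 0.0157). After quantile normalisation it had 0.16 and was not called (limma, adjusted p = 0.282).

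In the group that acts at and after activation, PRP19, the ubiquitin ligase that gives the Prp19 complex its name, had 1011, 1216 and 1272 normalised reads in assemblies and 446, 461 and 513 in total RNA. Its log2 fold change was 1.30 (SE 0.13; limma, adjusted p = 2.28e-06). PRP46, a WD-repeat protein of the same assembly, moved in the opposite direction, with 116, 137 and 97.8 against 236, 219.7 and 247 and a log2 fold change of -1.01 (SE 0.15; limma, adjusted p = 6.45e-05). Neither gene's groups overlapped, and their coding sequences have 1512 and 1356 nt. PRP45, a further member of that complex, was not called (0.20, 95% interval -0.08 to 0.48), but was called lower with equal library totals (-0.37; limma, adjusted p = 0.0237) and higher after quantile normalisation (0.55; adjusted p = 0.00108). PRP18, a factor of the second catalytic step with only 756 nt of coding sequence, was higher by 0.51 (SE 0.17; limma, adjusted p = 0.0143), a call lost without assembly library 2 (adjusted p = 0.0633) and a value of -0.05 with equal library totals.

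The genes of the small ring proteins were mostly lower. Of the 14 Sm and LSM genes, 11 were lower, 3 were higher and none was uncalled, with a median log2 fold change of -1.16. Of all 802 nuclear genes tested in the same range of coding length, 234 to 591 nt, 76.2% were called lower and 11.7% higher, and their median was -1.32. The share of lower members is thus near that of other genes of this length. The 23 PRP genes had a median of 0.21, with 11 higher, 6 lower and 6 not called. Their coding sequences run from 729 to 7242 nt, and over all genes tested 41.3% were called higher and 40.8% lower. In the single assembly libraries 1, 2 and 3, set against the mean of total RNA, the median was -0.92, -1.17 and -1.39 for Sm and LSM genes and 0.20, 0.16 and 0.35 for PRP genes. The separation of the small ring proteins from the PRP proteins was therefore present in each assembly library and was widest in library 3.

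Within the LSM ring 6 genes were lower and 1 was higher. LSM6 (YDR378C) had the largest change of all members, with 53.6, 67.8 and 37.7 normalised reads in assemblies and 350.5, 349 and 387 in total RNA, a log2 fold change of -2.79 (SE 0.20; limma, adjusted p = 3.17e-07). LSM2 fell by 2.29 (SE 0.16), LSM5 by 1.96 (SE 0.16), LSM7 by 1.59 (SE 0.15), LSM8 by 1.23 (SE 0.24) and LSM4 by 0.69 (SE 0.14) on the log2 scale. LSM8, the subunit that sets the nuclear U6 ring apart, was the most thinly counted member, with 16 recovered reads in assembly library 3. LSM1, which is no member and takes the place of LSM8 in the cytoplasmic ring of mRNA decay, had -1.31 (SE 0.14). LSM3 was the exception with 229, 201 and 199 normalised reads in assemblies against 168, 171 and 157 in total RNA. Its groups did not overlap and its log2 fold change was 0.34 (SE 0.13; limma, adjusted p = 0.0316). The call was lost without assembly library 1 (adjusted p = 0.0599) and without any single total RNA library (0.0759 to 0.0974), and with equal library totals the value was -0.22.

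Within the Sm ring 5 genes were lower and 2 were higher. SMD3 had 41.4, 33.9 and 37.7 normalised reads in assemblies against 115, 134 and 113 in total RNA, a log2 fold change of -1.66 (SE 0.17; limma, adjusted p = 2.76e-06). SMX2, the Sm G protein, fell by 1.53 (SE 0.18), SME1 by 1.10 (SE 0.18), SMD2 by 0.66 (SE 0.20) and SMB1 by 0.48 (SE 0.21), the last pair with 0.13 and 0.09 after quantile normalisation. The call of SMB1 (limma, adjusted p = 0.0478) was kept only without assembly library 1, with adjusted p from 0.0715 to 0.149 when any other single library was left out. SMX3 (YPR182W), the Sm F protein, had 365, 346 and 349 in assemblies against 249, 241 and 245 in total RNA, with no overlap and little spread in either group. Its log2 fold change was 0.53 (SE 0.12; limma, adjusted p = 0.00133), and it was called higher whichever library was left out, while with equal library totals it was -0.04. SMD1 had 337, 222 and 348 against 211, 219 and 221, so that assembly library 2 lay only just above total RNA. Its log2 fold change of 0.45 (SE 0.17; limma, adjusted p = 0.0294) was called without assembly library 2 and not when any other single library was left out (adjusted p from 0.0595 to 0.116); with equal library totals it was -0.12.

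LSM6 and SMX3 have coding sequences of the same length, 261 nt, and encode related ring proteins of 86 residues. Yet LSM6 was the lowest member and SMX3, as scaled by the authors, rose. The normalised reads of SMX3 divided by those of LSM6, each plus 1, gave 6.71, 5.05 and 9.04 in assemblies and 0.710, 0.692 and 0.633 in total RNA. This pair was chosen after its values were seen, and the ratio is a description. The coding sequences are shown because their base composition differs: GC content was 40.2% in LSM6, on the minus strand of chrIV:1229349-1229609, and 53.6% in SMX3, on the plus strand of chrXVI:900194-900454 (RefSeq, build R64). Capitals mark the start and stop codons, and each sequence runs 5′ to 3′ on the coding strand.
LSM6: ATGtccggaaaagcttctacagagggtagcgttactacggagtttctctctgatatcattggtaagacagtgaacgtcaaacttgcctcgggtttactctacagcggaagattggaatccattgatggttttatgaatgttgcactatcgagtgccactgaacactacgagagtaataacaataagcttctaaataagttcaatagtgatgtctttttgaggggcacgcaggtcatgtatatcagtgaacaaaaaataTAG
SMX3: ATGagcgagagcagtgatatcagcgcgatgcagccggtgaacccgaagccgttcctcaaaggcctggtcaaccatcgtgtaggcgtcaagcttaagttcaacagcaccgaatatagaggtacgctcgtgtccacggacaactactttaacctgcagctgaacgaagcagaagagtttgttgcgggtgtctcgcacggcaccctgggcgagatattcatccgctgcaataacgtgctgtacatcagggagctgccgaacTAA
LSM3, with 270 nt and also called higher, had a GC content of 49.3%. LSM5 had 47.5% and was lower, so the members did not order by GC content alone. Across the 14 Sm and LSM genes, Spearman's rho of the log2 fold change was 0.47 with GC content and 0.26 with coding length, a description over genes that share the same libraries. Taken without regard to coding length, rho with GC content was -0.01 over all 41 members and 0.01 over 5502 nuclear genes. Such values do not show how the change went with GC content at a given length. A curve of the change over nuclear genes, described below, did shift once GC content was added to coding length. It moved from 0.65 to -0.03 for PRP39 (34.1% GC) and from -0.37 to 0.13 for PRP45 (45.3% GC).

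LSM2, LSM7 and SMD2 are the only members with an intron in their coding sequence, and all were lower in assemblies (SMD2 had 0.13 after quantile normalisation). As 76.2% of nuclear genes in the length range of the rings were lower, this direction does not set them apart. Their introns are shown because they are substrates of the machine that these genes encode. Capitals mark the first 6 bases, the branch point motif TACTAAC and the last 3 bases, searched on the coding strand only. In all 3 the intron begins with GTATGT and holds TACTAAC, and the branch adenosine is followed by 36, 34 and 30 further nt of intron in LSM2, LSM7 and SMD2. Of 281 nuclear introns of 20 nt and over between annotated coding parts, 73.0% began with GTATGT and 82.6% held TACTAAC. All 3 introns lie on the plus strand and were read from RefSeq, build R64: 128 nt at chrII:170677-170804 in LSM2, 96 nt at chrXIV:350958-351053 in LSM7 and 90 nt at chrXII:694383-694472 in SMD2.
LSM2: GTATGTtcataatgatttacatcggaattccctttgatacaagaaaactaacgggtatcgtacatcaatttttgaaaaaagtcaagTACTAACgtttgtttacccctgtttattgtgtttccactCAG
LSM7: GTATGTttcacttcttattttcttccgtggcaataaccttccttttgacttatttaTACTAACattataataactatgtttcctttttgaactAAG
SMD2: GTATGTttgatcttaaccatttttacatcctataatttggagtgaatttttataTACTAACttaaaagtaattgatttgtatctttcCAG
The deposited values are 1 number per open reading frame, so spliced and unspliced RNA of these genes were not told apart.

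SMD1 and PRP38 are neighbours that face each other on chromosome VII, and as scaled by the authors they moved in opposite directions. With equal library totals both log2 fold changes were negative, -0.12 for SMD1 and -1.59 for PRP38. The call of SMD1 also did not outlast leaving out most single libraries, and that of PRP38 ended after quantile normalisation. Their coding sequences share 6 bases at their 3′ ends, 636147 to 636152, printed in capitals within chrVII:636123-636176 (plus strand, RefSeq, build R64), where SMD1 is read from left to right and PRP38 from the other strand.
SMD1_PRP38: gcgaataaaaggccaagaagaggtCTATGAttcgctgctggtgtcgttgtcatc
The normalised reads of SMD1 over those of PRP38, each plus 1, were 9.99, 8.05 and 11.9 in assemblies and 3.50, 3.11 and 4.05 in total RNA, so the groups did not overlap. Whether counting used strand is not stated in these sources, so reads from 1 of these genes that run into the other cannot be told apart. LSM5 likewise shares 239 of its 282 nt with YER145C-A on the opposite strand. No member had a near-identical copy elsewhere among annotated coding sequences apart from that overlap.

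The levels of ring subunits, which stand in equal numbers in the assembled ring, were compared as normalised reads per kb of coding sequence. In total RNA the Sm mRNAs ran from SMX3 with 938 per kb through SME1 (656), SMX2 (547), SMD1 (492), SMD3 (395) and SMB1 (304) to SMD2 with 255, and no neighbours in this order overlapped over the 3 libraries. In assemblies the order was SMX3 (1354), SMD1 (685), SME1 (309.7), SMB1 (225), SMX2 (189), SMD2 (163) and SMD3 (123), and all neighbours from SME1 downward overlapped. The highest Sm mRNA stood 3.96, 3.37 and 3.74 times above the lowest in total RNA libraries 1, 2 and 3 and 10.3, 12.0 and 11.1 times above it in assembly libraries 1, 2 and 3. The mRNAs of the Sm ring were thus further apart per length in every assembly library than in any total RNA library. The LSM mRNAs were already far apart in total RNA, where the highest stood 8.14, 8.76 and 12.0 times above the lowest, and the same ratio was 10.4, 8.12 and 12.9 in assemblies. What differed there was the order: LSM2 (1711 per kb) led in total RNA and LSM3 (777 per kb) in assemblies, while LSM8 was lowest in both (182 and 76.7). In total RNA the levels of LSM6 and LSM5 overlapped, as did those of LSM7 and LSM3, and in assemblies those of LSM5 and LSM2 and of LSM7 and LSM6. SNU13 had 5931 normalised reads per kb in total RNA, the highest level of any member, and PRP38 had the lowest with 83.8.

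**Figure D2:**
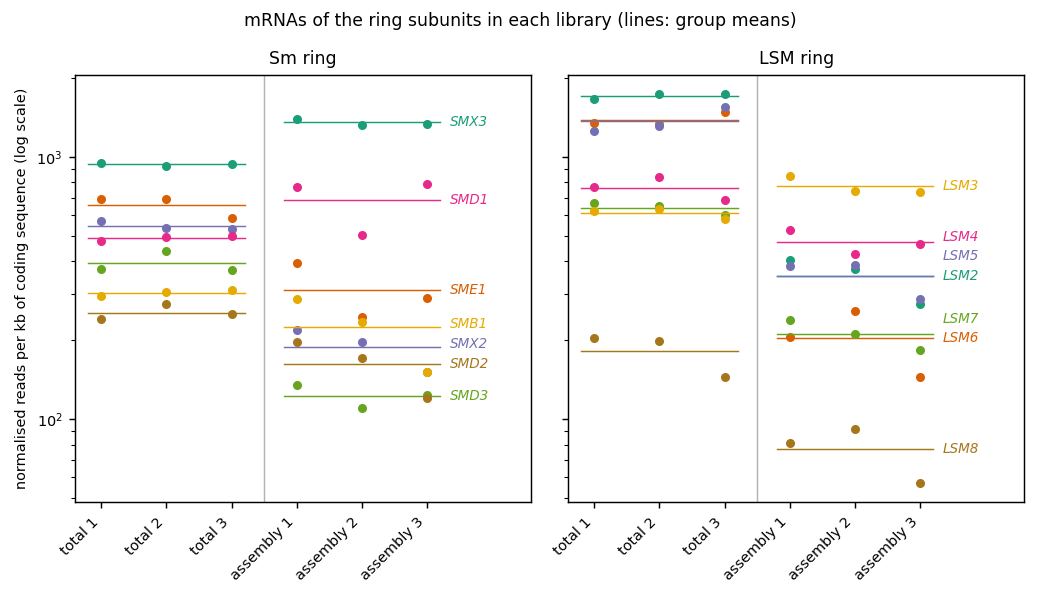
Points give normalised reads per kb of coding sequence (log axis) of the 7 Sm mRNAs (left) and the 7 LSM mRNAs (right) in the 3 total RNA and 3 assembly libraries, and lines give the group means. The Sm points spread apart in assemblies, from SMX3 at 1354 to SMD3 at 123 per kb, and LSM3 moves from near the bottom of the LSM group to its top.

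The change also weighed on the sum over members. All 41 genes together took 0.265% ± 0.0108 of recovered reads in total RNA and 0.367% ± 0.0224 in assemblies (SD, n = 3 libraries each). PRP8 and BRR2 alone made up 26.4% ± 0.666 of the members' normalised reads in total RNA and 53.7% ± 3.78 in assemblies. The 14 Sm and LSM genes together had 3283 ± 52.0 normalised reads in total RNA and 1842 ± 188 in assemblies, and the 23 PRP genes 12482 ± 114 and 31664 ± 4711 (SD, n = 3 each).

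The change was set against coding length. Over the 41 members coding length went with the log2 fold change at a Spearman's rho of 0.75 and, as log2 length, at a Pearson's r of 0.76. The members share these libraries and both values are a description, beside a Spearman's rho of 0.68 over 5502 nuclear genes. Of the 9 members of 2000 nt and over, 8 were higher and none lower, with a median of 1.19, where 88.8% of the 1273 nuclear genes of that length were higher and their median was 1.38. Of the 12 members from 1200 to below 2000 nt, 5 rose and 3 fell (median -0.01), and of the 5 from 600 to below 1200 nt, 1 rose and 3 fell (median -0.82). Of the 1595 nuclear genes in the longer of these ranges 722 were higher and 462 lower (median 0.24), and of the 1701 in the shorter 314 were higher and 1057 lower (median -0.73). Within the PRP genes alone rho was 0.70, and the 7 PRP genes of 2000 nt and over had a median of 1.19 against -0.06 for the 11 of 1200 to below 2000 nt. The longer PRP genes thus stood above the shorter ones, as the PRP genes did above the ring genes.

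**Figure D3:**
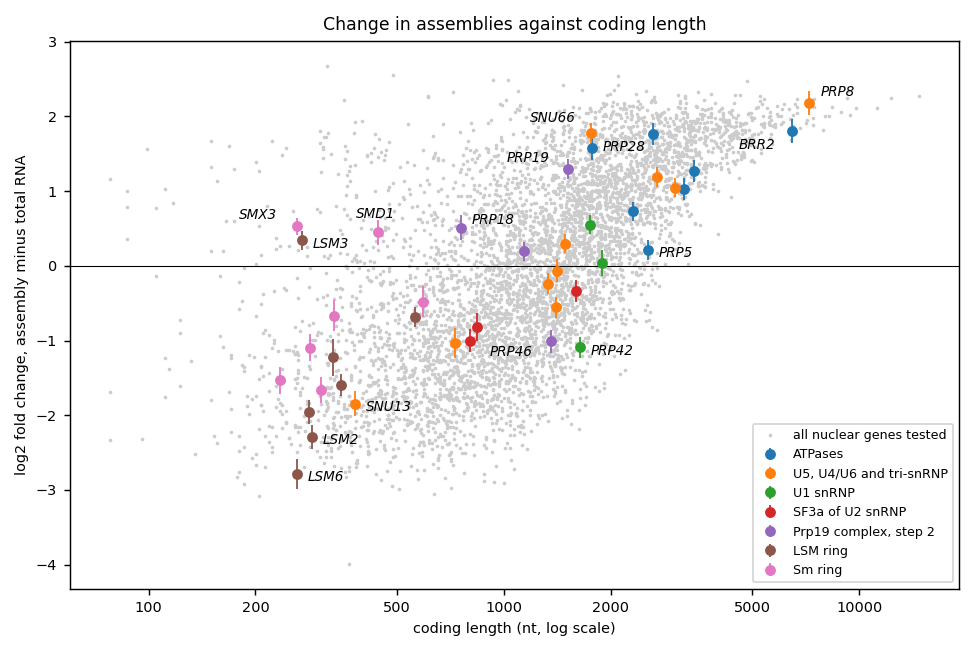
The log2 fold change (assembly minus total RNA, error bars SE) is plotted against coding length in nt on a log axis, with all nuclear genes tested in grey and the members coloured by role. The members lie along the grey cloud from LSM6 at -2.79 to PRP8 at 2.18, with SMX3, LSM3, SMD1 and SNU66 above and PRP5, PRP42 and PRP46 below the bulk of genes of their length.

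Coding length and GC content were then fitted out with a smooth curve over all nuclear genes, and limma was run on what remained. The curve took up the change of the largest members: PRP8 stood 0.06 (SE 0.07) from it and BRR2 -0.16 (SE 0.08), and neither was called. Such a curve gives genes of like length and GC content nearly the same value, so differences among them remain by construction. Of the 41 members 11 were called above the curve, 15 below it and 15 on neither side, so 26 were called. Of all nuclear genes 69.7% were called, 34.0% above the curve and 35.7% below it. SNU66 stood highest above the curve at 1.56 (limma, adjusted p = 4.00e-05), followed by SMD1 (1.44), PRP18 (1.42), SMX3 (1.41), LSM3 (1.36), PRP28 (1.32) and PRP19 (1.06). LSM6 stood lowest at -1.72 (limma, adjusted p = 6.94e-05), followed by LSM2 (-1.19), PRP46 (-1.15), LSM5 (-0.94) and PRP5 (-0.85). Both ends of this order hold members of the rings as well as of the PRP genes. The median distance was -0.01 for Sm and LSM genes and 0.07 for PRP genes, against -0.03 for all nuclear genes, whose middle 50% lay between -0.61 and 0.54.

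**Figure D4:**
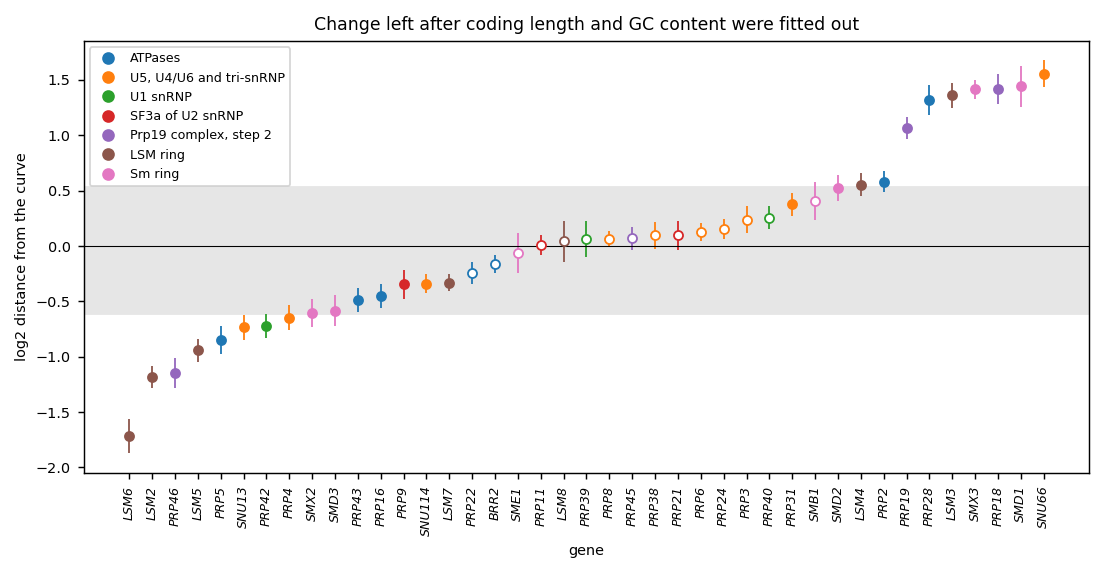
Points give each member's log2 change left after coding length and GC content were fitted out (error bars SE), filled where limma called it at an adjusted p of 0.05, and the grey band spans the middle 50% of all nuclear genes. PRP8 and BRR2 lie near 0, while LSM6 at -1.72 and SNU66 at 1.56 mark the ends.

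A further 53 genes of splicing that are no members were listed by name, among them proteins of U1, U2, the Prp19 complex and the cap-binding complex. Of these, 13 were higher, 30 were lower and 10 were not called, and their median was -0.48 with a median coding length of 897 nt, against 1335 nt in the members. Over all genes tested 41.3% were higher and 40.8% lower, and of the 1701 nuclear genes from 600 to below 1200 nt, the range that holds that median length, 1057 were lower. BUD31 (1.66), a spliceosomal protein with 474 nt, RSE1 (1.64), a subunit of SF3b with 4086 nt, and the branch point binding protein MSL5 (1.36) were highest. CBC2 (-2.45), the small subunit of the cap-binding complex, LIN1 (-2.37) and SNU23 (-2.23), a tri-snRNP protein, were lowest.

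The authors' deposited table lists a DESeq p-value for 27 of the 41 members, 12 with a fold change above 1 and 15 below 1, and marks the other 14 as not significant. Of all 6603 open reading frames, 3948 have a listed p-value. The largest p-value that the authors' deposited table lists for any gene is 0.009953, so it is stricter than the threshold used here. In the authors' deposited table LSM6 has a fold change of 0.146 and PRP8 of 4.59, and LSM3, SMD1 and SMX3 are among the 14 marked as not significant.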

How the data were processed

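The submitters' processing notes name build R64 and the tools Bowtie 0.12.7, Trimmomatic 0.32, DESeq 1.22.1, FastQC and HTSeq. The sources used here do not state the annotation, the strand setting or what was done with reads that map to several places. For each library the authors gave every open reading frame a signal, normalised reads per the file headers, with group means, their ratio as a fold change and, where small, a p-value from DESeq. Each deposited signal equals reads over a factor of its library, since 100% of nonzero values could be turned into whole reads (tolerance 0.01). Of 6603 identifiers 5913 matched a coding RefSeq gene of build R64, all 41 members among them. The other 690 have no position here, and 13 members have such a frame next to them in the systematic numbering.

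As the values are not counts, log2(value + 1) was tested with limma 3.58.1 in R 4.3.3 (two-sided, variance trend) for the 5670 genes whose mean reached 10. P-values were adjusted by Benjamini-Hochberg over all of them, and 0.05 was the threshold. This scale understates changes of genes with low values. The fit held all 6 libraries and no covariate. The length and GC curve was a loess with a span of 0.5 in each library. Near-identical genes were sought with BLAST+ 2.17.0 (95% identity over 50% of the coding sequence). edgeR 4.0.16 and DESeq2 1.42.0 were run on recovered reads as alternatives. The limma test was tested on simulated data. Values in every library are given for the highest and lowest member of each role group and for members called against most of their group. Of the other splicing genes, the 3 highest and 3 lowest called are named. The members, lists and rules were chosen with earlier results of these data known.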

Additional observations from a re-analysis of the deposited data

How the results depend on the processing

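Of the 41 members, 13 kept direction and call under every alternative that tested them (SMD3 and SMX2 among them were not tested at a mean of at least 100). Changing the pseudocount to 0.5 or 10 altered no member's call. Equal library totals gave 1582 higher and 3061 lower genes among all 5685 tested. With equal library totals, counts moved to 10 higher members, 0 higher Sm and LSM genes, 7 higher and 12 lower PRP genes and 6 higher other splicing genes, and values reversed for PRP5 (-0.35), PRP31 (-0.27), PRP39 (-0.53), PRP40 (-0.015), PRP45 (-0.37), PRP18 (-0.052), LSM3 (-0.22), SMD1 (-0.12) and SMX3 (-0.037), as this scaling lowers every gene by a like amount. Quantile normalisation gave 3 lower PRP genes and 19 lower other splicing genes, ended the calls of PRP43, PRP4, PRP38 and PRP21, called PRP5 and PRP45 higher, and reversed PRP3 (0.55), PRP24 (0.30), PRP39 (-0.031), PRP9 (0.16), SMB1 (0.088) and SMD2 (0.13); the cause was not tested. TMM factors gave 1 higher Sm or LSM gene and -0.084 for PRP39. edgeR's quasi-likelihood test on recovered reads gave -0.029 for PRP39 and called 15 members higher and 20 lower, and DESeq2 called 15 and 17. With a mean of at least 100 fewer genes were tested, leaving 7 lower Sm and LSM genes and 12 lower other splicing genes. With total RNA libraries 1 and 2 averaged, 1 Sm or LSM gene was higher.

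With length and GC content fitted out, 11 members, 5 Sm and LSM genes and 5 PRP genes were higher, and 6 Sm and LSM genes and 19 other splicing genes were lower. Of all nuclear genes 34.0% were then higher and 35.7% lower. Values reversed for PRP5 (-0.85), PRP16 (-0.45), PRP22 (-0.25), PRP43 (-0.49), BRR2 (-0.16), SNU114 (-0.34), PRP3 (0.24), PRP24 (0.15), PRP38 (0.10), PRP11 (0.0078), PRP21 (0.10), LSM4 (0.56), LSM8 (0.041), SMB1 (0.41) and SMD2 (0.53), which then measure the distance from the curve. With length alone fitted out, an alternative chosen after seeing the data, 9 members and 5 PRP genes were higher and 6 Sm and LSM genes and 10 PRP genes lower, and values reversed for PRP5 (-0.96), PRP16 (-0.45), PRP22 (-0.28), PRP43 (-0.28), BRR2 (-0.24), SNU114 (-0.35), PRP6 (-0.059), PRP39 (-0.62), LSM4 (0.21), SMB1 (0.41) and SMD2 (0.30). Leaving out each library in turn gave 1 to 3 higher Sm and LSM genes, 14 to 16 higher and 17 to 19 lower members, and moved PRP39 between -0.18, without assembly library 3, and 0.19.

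Correlations of deviations from the group mean were 0.08, 0.17 and 0.28 for libraries of the same replicate number. For assembly library 3 the others were -0.22 and -0.18, and for assembly library 1 they were 0.07 and -0.10. Assembly library 2 correlated best with total RNA library 1 (0.22). Deviations from a group mean are not independent, so these values cannot decide whether replicate numbers pair the libraries. With a replicate block 16 members were higher and 19 lower; PRP31 lost its call (limma, adjusted p = 0.0642) and PRP9 gained one (0.0473). Depth limits LSM8 and PRP38 most, with as few as 16 and 22 reads in a library.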
